A study of Mus musculus with 16 samples.

Results

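RNA of 10 genes that build the desmosomes of the epidermis was followed in the dorsal skin of male and female mice with and without UVB. The genes were chosen by symbol, as named parts of the desmosome. They encode the desmogleins (*Dsg1a*, *Dsg1b*, *Dsg2* and *Dsg3*), the desmocollins (*Dsc1*, *Dsc2* and *Dsc3*) and the plaque proteins plakophilin 1 (*Pkp1*), plakoglobin (*Jup*) and desmoplakin (*Dsp*). All 10 were found among the 55359 Ensembl genes of the count tables, and all 10 passed the filter on low counts in every comparison. The libraries came from 16 wild-type C57Bl/6 mice (C57Bl/6N in the study's text) aged 8 weeks whose hair follicles were resting (telogen). Of the 8 males 4 were UVB-irradiated and 4 were not (no-UVB), likewise of the 8 females, and each mouse gave 1 library. Irradiated mice received UVB 3 times, once every other day, and their skin was collected 6 h after the last exposure, on day 5. No mouse carried a transgene or a deletion. Whole skin was used, so that fewer cells of a type and less RNA per cell cannot be told apart.

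Desmosomes are the spot-like junctions that rivet neighbouring keratinocytes together and anchor their keratin filaments. Desmogleins and desmocollins are cadherins that bind each other between the cells. Inside the cell their tails bind plakoglobin and plakophilins, and these bind desmoplakin, which holds the keratin filaments. The make-up changes through the epidermis: *Dsg3* and *Dsc3* are known for the basal layers, Dsg1 and *Dsc1* for the layers above them, and *Dsg2* and *Dsc2* for simple epithelia and hair follicles. Autoantibodies against DSG1 and DSG3 cause the blistering diseases pemphigus foliaceus and pemphigus vulgaris.

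Each library held 16495776 to 33404831 reads on genes, with a median of 21767339. The member with the fewest reads, *Dsc2*, had at least 257 reads in every mouse, and *Dsp* had at least 40726. The libraries carried the defining markers of skin, with summed levels of 6 basal keratinocyte genes between 4647 and 11859 CPM (reads scaled to library size, by TMM) in every mouse, while 6 hair shaft keratin genes together stayed between 0.0721 and 8.20 CPM. Hair shaft RNA was highest in no-UVB male replicates 4 (8.20 CPM) and 3 (7.15 CPM), and the next highest mouse, no-UVB male replicate 1, was at 0.652 CPM. Collagen and skeletal muscle RNA differed between the groups. The sum of 6 fibroblast genes, among them the collagen genes *Col1a1*, *Col1a2* and *Col3a1*, ran from 79065 to 86268 CPM in no-UVB males, from 28385 to 39292 in UVB-irradiated males, from 19205 to 20539 in no-UVB females and from 12113 to 21853 in UVB-irradiated females. Without UVB the mean of *Col1a1* was 29612 CPM in males and 5069 in females, that of *Col1a2* 29273 and 5733 and that of *Col3a1* 19997 and 5672. The others differed less, with *Lum* at 716 and 425, *Dcn* at 2926 and 2570 and *Pdgfra* at 115 and 140 CPM. The 5 skeletal muscle genes summed to 14517 to 19302 CPM in no-UVB males and to 8699 to 13795 CPM in the other groups. The fits were therefore repeated from library totals without the scaling factors.

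On GRCm39 the cadherin genes lie side by side on chromosome 18. The desmocollins run on the minus strand in the order *Dsc3* (20093987 to 20135408), *Dsc2* (20163675 to 20192717) and *Dsc1* (20217241 to 20247928). The desmogleins follow on the plus strand as *Dsg1a* (20443868 to 20476407), *Dsg1b* (20509781 to 20543253), *Dsg3* (20643331 to 20680516) and *Dsg2* (20691074 to 20737581). *Dsg1a* and *Dsg1b* are copies that correspond to the single human DSG1, and their longest transcripts were 96.79% identical over 3709 aligned bases. Of all stretches of 100 bases in their transcripts, 24.57% of those of *Dsg1a* and 32.78% of those of *Dsg1b* also occurred in the other copy or in *Dsg1c*. The split of reads between both copies is thus uncertain. Their levels per length may also be too low if reads from shared stretches were not counted. For the other 8 members no stretch of 100 bases was shared with another gene.

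Without UVB, desmoplakin RNA was the most abundant of the 10. Its level per length, in RPKM, which is CPM per kilobase of exon, was 266 ± 35.9 (SD, n = 8 no-UVB mice of both sexes). *Pkp1* at 130 ± 17.8, *Dsg1a* at 113 ± 12.2 and *Dsc3* at 103 ± 12.7 RPKM came next, and the ranges of these neighbours overlapped. Lower levels were those of *Jup* at 65.9 ± 8.77 and *Dsc1* at 45.2 ± 8.10 RPKM, whose ranges met at their edges. Below them stood *Dsg3* at 19.0 ± 2.99 and *Dsg1b* at 10.9 ± 2.04 RPKM, again with overlapping ranges. *Dsg2* at 3.43 ± 0.445 and *Dsc2* at 3.00 ± 0.524 RPKM were the lowest and overlapped each other. The ranges of the 8 mice did not overlap between *Dsp* and *Pkp1*, between *Dsc3* and *Jup*, between *Dsc1* and *Dsg3* or between *Dsg1b* and *Dsg2*. The rank of *Jup* depended on its length, since with the longest transcript in place of all exons it was at 141 RPKM, beside *Pkp1* at 139.

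After UVB, desmosome RNA rose broadly in males and for fewer members in females. In males 9 of the 10 genes were higher, where the threshold was a Benjamini-Hochberg adjusted p of 0.1 over all genes tested by the edgeR quasi-likelihood test and 29.0% of all genes were higher. The exception was *Dsg2*. In females 4 of the 10 were higher (*Dsg1b*, *Dsc1*, *Dsc2* and *Jup*), where 12.8% of all genes were. None of the 10 was called lower in these fits or by DESeq2's Wald test, although 30.5% of all genes in males and 10.6% in females were by edgeR, and an unadjusted p under 0.05 for a lower level was found for *Dsg2* in females alone. The median log2 fold change of the 10 was 0.65 in males and 0.21 in females, and over all genes tested it was -0.02 and 0.00. *Dsg1b* and *Dsc1*, which belong to the upper layers, rose most in both sexes, and they alone were past a log2 fold change of 1, as were 4.08% of all genes in males and 1.63% in females. *Dsg1a*, also of the upper layers, rose less in males (0.44) than *Dsg3* (0.94) and *Dsc3* (0.64) of the basal layers. It was not called in females. Irradiated and no-UVB mice did not overlap for 9 members in males, against 22.9% of all genes that were higher in this way, and for 2 members in females, against 11.1%. In males the 9 calls stood in each of the 8 fits that left out 1 mouse and under all 11 other settings. In females the count of 4 fell to 2 with a replicate block, from library totals and in 5 of the 8 fits that left out 1 mouse, and *Dsg2* was called lower under some settings, given with its levels.

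**Figure D1:**
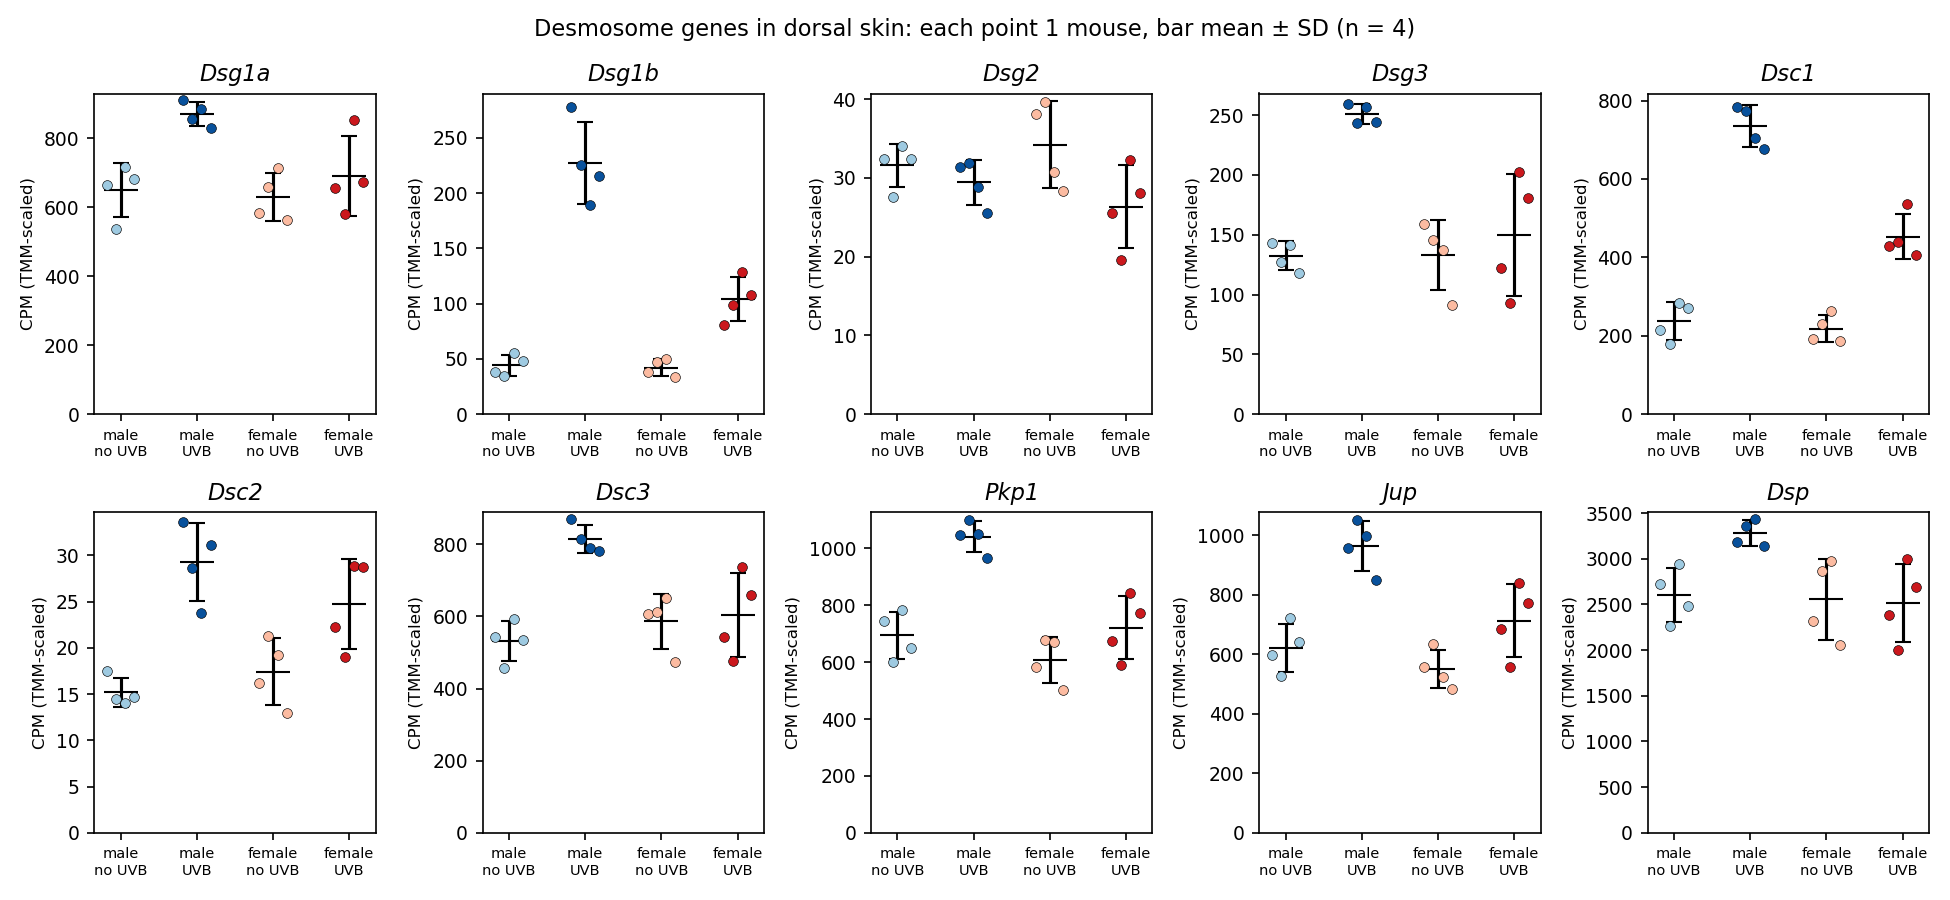
Level of each desmosome gene in every mouse, in CPM on a linear axis that starts at 0, with the mean and SD of the 4 mice per group. For *Dsg1b* the 4 irradiated males lie between 189 and 278 CPM and the 4 irradiated females between 81.1 and 129, above all no-UVB mice, while for *Dsg2* the 4 groups overlap.

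Among the desmogleins, *Dsg1b* changed most. In no-UVB males it was at 38.6, 34.6, 55.8 and 48.3 CPM, and in UVB-irradiated males at 278, 226, 189 and 216 CPM. In no-UVB females it was at 38.3, 47.3, 49.7 and 33.4 CPM, and in UVB-irradiated females at 81.1, 98.9, 129 and 108 CPM. Every irradiated mouse was above every no-UVB mouse, and every irradiated male was above every irradiated female. The rise was 5.20-fold in males (log2 fold change 2.38, standard error 0.169, edgeR adjusted p = 8.24e-06) and 2.48-fold in females (1.31, 0.159, 0.000758).

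*Dsg1a*, its more abundant copy, moved less. Males without UVB had 666, 537, 718 and 681 CPM of *Dsg1a* and irradiated males 911, 857, 885 and 829. Females without UVB had 583, 660, 713 and 564 CPM and irradiated females 656, 581, 853 and 673. The male groups stood apart, and among the females only UVB replicate 3 was above all controls. In males *Dsg1a* rose 1.36-fold (log2 fold change 0.44, standard error 0.0924, edgeR adjusted p = 0.00200), whereas the value in females, 0.14 (standard error 0.134), was within the spread between mice (edgeR adjusted p = 0.523).

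*Dsg3*, the desmoglein of the basal layers and the main antigen of pemphigus vulgaris, was at 143, 127, 142 and 118 CPM in no-UVB males and at 260, 244, 257 and 245 CPM in irradiated males. In females it was at 159, 146, 137 and 91.0 CPM without UVB and at 122, 92.8, 203 and 181 CPM after it. Irradiated males were tightly grouped and all above the controls, while of the irradiated females replicates 3 and 4 were above theirs and replicates 1 and 2 within their range. *Dsg3* rose 1.92-fold in males (log2 fold change 0.94, standard error 0.0718, edgeR adjusted p = 2.78e-06). The female value of 0.17 had a standard error of 0.246 (edgeR adjusted p = 0.679) and was -0.0074 without UVB female replicate 3.

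*Dsg2* was the only member not higher in males. Its levels in males were 32.3, 27.6, 34.0 and 32.3 CPM without UVB and 31.4, 31.8, 28.8 and 25.6 CPM with UVB. In females they were 38.1, 39.6, 30.7 and 28.3 CPM without UVB and 25.6, 19.5, 32.2 and 28.0 CPM with it. The groups overlapped in both sexes. The log2 fold change was -0.08 in males (standard error 0.0887, edgeR adjusted p = 0.474) and -0.37 in females (0.156, 0.142). The female value of *Dsg2* was past the threshold with all 16 mice in a single fit (-0.38, edgeR adjusted p = 0.0576) and from library totals without scaling factors (-0.46, 0.0990). From library totals the median of all genes in females was -0.09.

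Of the desmocollins, *Dsc1* rose most, and it is the one known for the upper layers. No-UVB males had 216, 179, 284 and 272 CPM of *Dsc1*, and irradiated males had 784, 774, 705 and 676 CPM. No-UVB females had 193, 231, 262 and 187 CPM, and irradiated females had 429, 438, 537 and 407 CPM. Neither sex overlapped between treatments, and the 4 irradiated males exceeded the 4 irradiated females. The fold was 3.14 in males (log2 fold change 1.65, standard error 0.136, edgeR adjusted p = 6.25e-06) and 2.09 in females (1.06, 0.132, 0.000689).

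*Dsc2*, of low abundance per length, was at 17.5, 14.5, 14.1 and 14.7 CPM in no-UVB males and at 33.7, 28.7, 23.8 and 31.2 CPM in irradiated males. Its levels in females were 16.2, 21.3, 19.2 and 12.98 CPM without UVB and 22.2, 19.0, 28.9 and 28.7 CPM after UVB. All irradiated males were above their controls, and so were 3 of the 4 irradiated females. *Dsc2* rose 1.96-fold in males (log2 fold change 0.97, standard error 0.109, edgeR adjusted p = 3.29e-05) and 1.42-fold in females (0.51, 0.174, 0.0773). In females the call of *Dsc2* held under 8 of 11 other settings, with the highest edgeR adjusted p, 0.164, from library totals, and with 0.127 under a replicate block. It held in 3 of the 8 fits that left out 1 mouse, with the highest edgeR adjusted p, 0.187, when UVB replicate 3 was left out.

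*Dsc3* is the desmocollin of the basal layers. In males it went from 543, 457, 593 and 534 CPM without UVB to 869, 814, 791 and 782 CPM after it. In females it was at 605, 613, 651 and 475 CPM without UVB and at 543, 478, 738 and 659 CPM after it. The male groups did not overlap. Of the irradiated females, replicates 3 and 4 were above all controls and replicates 1 and 2 within their range. The log2 fold change was 0.64 in males (standard error 0.0859, edgeR adjusted p = 0.000115) and 0.05 in females (0.151, 0.851). From library totals without scaling factors the female value was -0.04, where the median of all genes was -0.09.

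The plaque genes rose less than *Dsg1b* and *Dsc1*. *Jup* encodes plakoglobin, which sits in both desmosomes and adherens junctions. It was at 597, 525, 721 and 640 CPM in no-UVB males and at 958, 1049, 998 and 849 CPM in irradiated males. Females had 556, 634, 524 and 484 CPM of *Jup* without UVB and 684, 557, 838 and 772 CPM with it. Irradiated males were above all their controls, and 3 of 4 irradiated females were above theirs. *Jup* rose 1.58-fold in males (log2 fold change 0.66, standard error 0.105, edgeR adjusted p = 0.000367) and 1.30-fold in females (0.38, 0.139, 0.0883). In females the call of *Jup* held in 2 of the 8 fits that left out 1 mouse, with the highest edgeR adjusted p, 0.217, when UVB replicate 3 was left out. It held under 8 of the 11 other settings, with edgeR adjusted p = 0.167 under a replicate block and 0.221 from library totals.

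*Pkp1*, which gathers cadherins and desmoplakin into the plaque of stratified epithelia, had 743, 601, 783 and 648 CPM in no-UVB males and 1046, 1098, 1052 and 968 CPM in irradiated males. In females its levels were 583, 677, 670 and 503 CPM without UVB and 673, 592, 844 and 773 CPM with UVB. The males separated by treatment, and UVB female replicates 3 and 4 alone were above the female controls. The log2 fold change was 0.61 in males (standard error 0.0949, edgeR adjusted p = 0.000308) and 0.25 in females (0.139, 0.251).

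*Dsp*, the most abundant member, was at 2725, 2258, 2945 and 2486 CPM in no-UVB males and at 3181, 3358, 3440 and 3142 CPM in irradiated males. Female levels were 2317, 2863, 2981 and 2058 CPM without UVB and 2382, 2002, 3002 and 2693 CPM after it. The lowest irradiated male was above the highest no-UVB male, and the female groups covered the same range. In males *Dsp* rose 1.28-fold, the smallest rise of the 9 (log2 fold change 0.36, standard error 0.102, edgeR adjusted p = 0.0126). The female value was -0.01 (standard error 0.170, edgeR adjusted p = 0.970).

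The plaque genes *Jup* (chromosome 11, 100259784 to 100291103, minus strand) and *Dsp* (chromosome 13, 38335230 to 38382553, plus strand) lie apart from the cadherin cluster and both rose in males. The 250 bases before the start of the canonical transcript are shown for both, read from GRCm39 with GENCODE M39, 5′ to 3′ on the gene's strand, with GC boxes in capitals (GGGCGG on either strand, so that CCGCCC is the match on the other strand).
Dsp, chr13:38334980-38335229, plus strand: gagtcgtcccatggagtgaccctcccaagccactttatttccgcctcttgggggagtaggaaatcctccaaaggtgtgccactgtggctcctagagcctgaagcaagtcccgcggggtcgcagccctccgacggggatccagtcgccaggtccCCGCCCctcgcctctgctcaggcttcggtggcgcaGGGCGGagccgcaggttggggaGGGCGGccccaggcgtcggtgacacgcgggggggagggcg
Jup, chr11:100288662-100288911, minus strand: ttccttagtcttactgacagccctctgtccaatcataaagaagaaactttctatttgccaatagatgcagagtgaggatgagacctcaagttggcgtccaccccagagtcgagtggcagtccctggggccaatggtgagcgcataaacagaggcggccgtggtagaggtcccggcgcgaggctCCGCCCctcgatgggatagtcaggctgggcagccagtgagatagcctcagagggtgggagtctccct
The window of *Dsp* held 3 GC boxes and that of *Jup* held 1. Of the 9 members whose windows are described, 4 had at least 1 GC box, the others being *Dsc2* and *Dsc3*, beside 36.32% of the 21769 such windows of protein-coding genes. GC content was 68.8% for *Dsp* and 56.8% for *Jup*. The AP-1 motif TGANTCA, searched on both strands, was in none of the 9 windows and in 6.174% of all, and the grainyhead motif AACCGGTT was in none and in 0.1057% of all. The windows of *Dsg1a* and *Dsg1b*, whose folds after UVB differed, were 93.8% identical over 242 aligned bases.

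**Figure D2:**
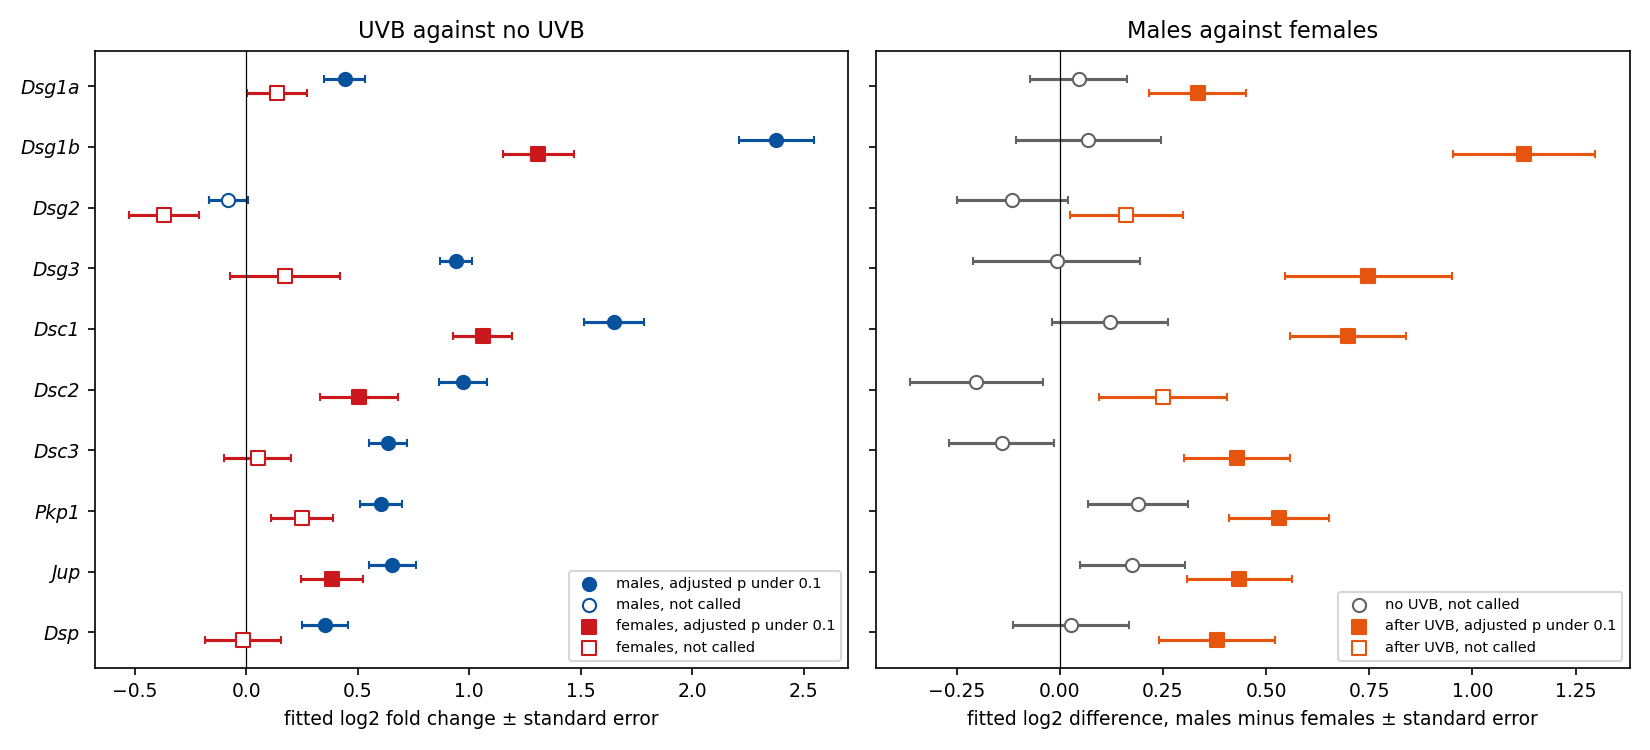
Fitted log2 fold change with its standard error for UVB against no UVB in males and females (left) and for males against females without and after UVB (right), with filled symbols for an adjusted p under 0.1. All 10 members lie further to the right in males than in females on the left panel, and on the right panel no member is called without UVB and 8 are called after it.

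Whether males and females differed in their response was tested as an interaction over all 16 mice. The fitted difference, males minus females, was positive for all 10 members, with a median of 0.40 on the log2 scale against -0.02 over all genes. It was past an adjusted p of 0.1 for 2 of them, where 2.75% of all genes were called with a larger response in males. One was *Dsg1b*, at 1.06 with a standard error of 0.246 (edgeR adjusted p = 0.0366), and the other was *Dsc3*, at 0.57 with 0.180 (0.0923). *Dsg3* had a difference of 0.76 with a standard error of 0.285 (edgeR adjusted p = 0.149), and *Dsc1* had 0.58 with 0.198 (0.114). *Dsc1* was past the threshold under 5 of 9 alternatives, library totals among them (0.67, edgeR adjusted p = 0.0787), and *Dsg3* by DESeq2's Wald test (adjusted p = 0.0588). From library totals the median of all genes for the interaction was 0.08. The other 6 members had differences from 0.26 (*Jup*) to 0.45 (*Dsc2*), none past the threshold. The call of *Dsg1b* held in all 16 fits that left out 1 mouse, and that of *Dsc3* in 4 of 16, with the highest edgeR adjusted p, 0.193, when no-UVB male replicate 2 was left out. With no filter beyond 1 count, neither was past the threshold (edgeR adjusted p = 0.1001 for *Dsg1b* and 0.121 for *Dsc3*).

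Before UVB the sexes did not separate at these genes. None of the 10 members was called between no-UVB males and no-UVB females, where 11.8% of all genes were, and the 4 males and 4 females overlapped for each of the 10, where they did not for 7.80% of all genes with males higher and 5.17% with males lower. The lowest unadjusted p from edgeR was 0.135, for *Pkp1*, so that 0 were under 0.05, where 22.2% of all genes were, and DESeq2's Wald test called 0 as well. The differences ran from -0.20 for *Dsc2* (standard error 0.160) to 0.19 for *Pkp1* (0.121). From library totals, where the median of all genes was -0.17, those of *Dsg1a*, *Dsg1b*, *Dsc1* and *Dsp* changed sign, to values from -0.14 to -0.042. After UVB, 8 of the 10 were higher in males, where 12.8% of all genes were, and for 7 the sexes did not overlap, where 11.5% of all genes were higher in this way. The differences were 1.13 for *Dsg1b* (edgeR adjusted p = 0.000925), 0.75 for *Dsg3* (0.0209) and 0.70 for *Dsc1* (0.00420). Smaller ones were those of *Pkp1* (0.53, edgeR adjusted p = 0.00852), *Jup* (0.43, 0.0277), *Dsc3* (0.43, 0.0293), *Dsp* (0.38, 0.0714) and *Dsg1a* (0.33, 0.0586). *Dsc2* at 0.25 and *Dsg2* at 0.16 were not past the threshold (0.285 and 0.445 by edgeR). The calls of *Dsg1a* and *Dsp* each held in 3 of the 8 fits that left out 1 irradiated mouse, with edgeR adjusted p up to 0.160 and 0.187. The count of 8 stood in 2 of these fits and fell to 5 when UVB female replicate 1 was left out, and from library totals without scaling factors, where the median of all genes was lower in males by 0.07, it was 6, without *Dsg1a* and *Dsp*.

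The make-up of the cadherins shifted in both sexes. Among the desmogleins, counted per kilobase, *Dsg1a* made up 77.3 ± 1.13% (SD, n = 4) of desmoglein RNA in males without UVB and 61.5 ± 1.98% after it, and 77.0 ± 2.77% and 70.9 ± 2.60% in females. *Dsg1b* went from 7.51 ± 0.953% to 22.9 ± 2.56% in males and from 7.33 ± 0.529% to 15.3 ± 1.81% in females. In every irradiated mouse the share of *Dsg1b* was above that of every no-UVB mouse, and every irradiated male was above every irradiated female. *Dsg3* kept a share of 12.2 to 14.5% in the group means, and *Dsg2* went from 2.23 ± 0.0658% to 1.23 ± 0.0942% in males and from 2.48 ± 0.382% to 1.60 ± 0.127% in females. Among the desmocollins, *Dsc1* went from 31.6 ± 2.93% to 48.3 ± 1.02% in males and from 28.0 ± 2.07% to 43.9 ± 4.09% in females, and *Dsc3* went from 66.5 ± 2.64% to 49.9 ± 0.928% in males and from 70.0 ± 2.10% to 53.9 ± 3.85% in females. For *Dsc1* and *Dsc3* irradiated and no-UVB mice did not overlap in either sex. *Dsc2* stayed near 2%, with group means from 1.79 to 2.20%. These shares depend on one another and were not tested.

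**Figure D3:**
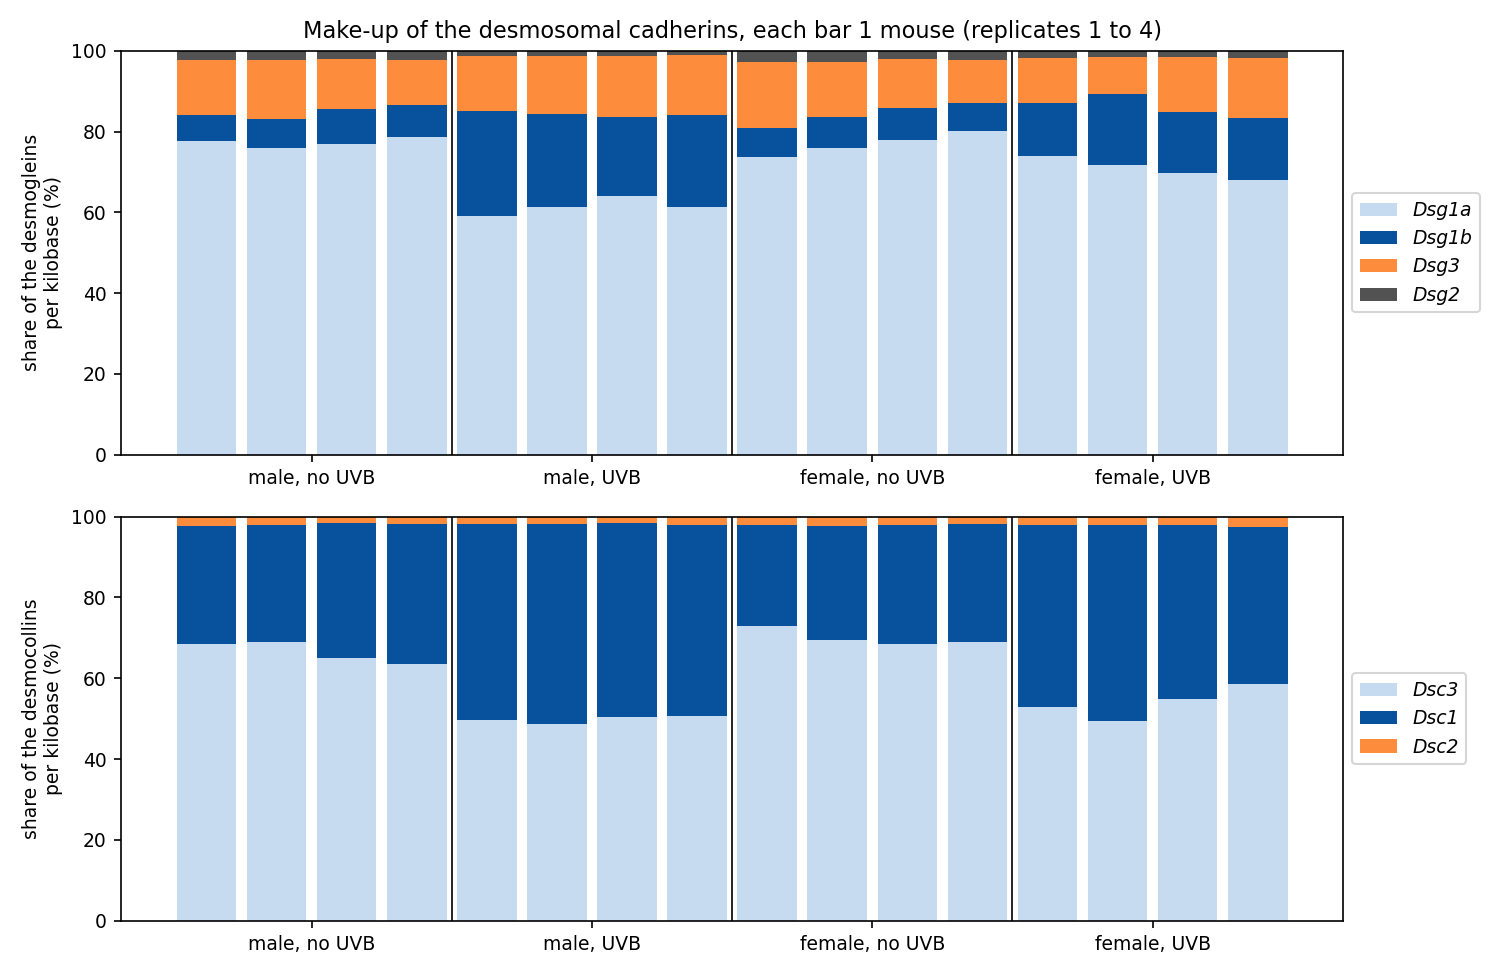
Share of each gene among the desmogleins (top) and among the desmocollins (bottom) in every mouse, in percent of reads per kilobase. The *Dsg1b* band covers 6.45 to 8.57% in no-UVB mice, 13.1 to 17.5% in irradiated females and 19.6 to 25.9% in irradiated males, and the *Dsc1* band is wider in all irradiated mice than in any no-UVB mouse.

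Set against reads of *Cdh1*, which encodes E-cadherin of the adherens junctions of all living epidermal layers, *Dsg1b* and *Dsc1* again had the largest ratios of UVB to no UVB. In males *Dsg1b* went from 0.184 ± 0.0297 reads per *Cdh1* read (SD, n = 4) to 0.656 ± 0.0812, and in females from 0.166 ± 0.0159 to 0.395 ± 0.0714. *Dsc1* went from 0.985 ± 0.168 to 2.13 ± 0.0559 in males and from 0.862 ± 0.103 to 1.74 ± 0.334 in females. *Dsg2* had fewer reads per *Cdh1* read after UVB, 0.0851 ± 0.00514 against 0.132 ± 0.00737 in males and 0.0986 ± 0.00388 against 0.135 ± 0.0138 in females, and its groups did not overlap in either sex. The ratio of *Dsg3* after UVB was 1.32 times that without it in males and 1.05 times in females, and that of *Dsc2* was 1.33 and 1.36 times. For *Dsg1a*, *Dsc3*, *Pkp1*, *Jup* and *Dsp* the ratio after UVB was between 0.881 and 1.23 times that without it in both sexes. Irradiated mice were above all no-UVB mice in this ratio for *Dsg1b*, *Dsc1* and *Dsc2* in both sexes, for *Dsg3* in males and for *Jup* and *Pkp1* in females. For *Dsp*, irradiated males (8.74 to 10.3 reads per *Cdh1* read) were below all no-UVB males (10.6 to 10.9). *Cdh1* itself rose in males (log2 fold change 0.54, edgeR adjusted p = 0.000232) and not past the threshold in females (0.08, 0.752), so that these ratios are relative to a gene that changed in males. The ratio was computed for the members only, so that no share of all genes stands beside these separations.

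Other desmosome and cell junction genes were counted in lists written with earlier results of these data known. Of 8 further desmosome and corneodesmosome genes tested, 5 were higher and 1 was lower in males, and 3 were higher and 1 was lower in females, beside 29.0% of all genes higher and 30.5% lower in males and 12.8% and 10.6% in females, and the median was 0.43 in males and 0.16 in females on the log2 scale. *Cdsn*, which encodes corneodesmosin of the corneodesmosomes, had log2 fold changes of 1.18 for males (edgeR adjusted p = 2.73e-05) and 0.94 for females (0.00353). *Evpl*, for the cornified envelope protein envoplakin, rose by 1.03 and 0.54 (edgeR adjusted p = 6.36e-06 and 0.0288), and *Pkp3*, a plakophilin of all epidermal layers, by 1.001 and 0.42 (3.44e-05 and 0.0735). *Perp*, a desmosomal membrane protein and p53 target, rose by 0.47 in males and *Ppl*, for periplakin, by 0.37, and in females their values of 0.15 and 0.18 were not past the threshold. *Pkp4*, a plakophilin-related catenin, was lower, at -0.33 in males and -0.25 in females. *Pkp2* was not called in either sex, and *Dsg4*, a desmoglein of the hair shaft, reached at most 2.12 CPM and *Dsg1c* at most 0.655 CPM in any mouse.

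The junction genes outside the desmosome have the same shares of all genes as background. Of 10 adherens junction genes, 7 were higher and 1 lower in males (median 0.37), and 0 were higher and 1 lower in females (median 0.07), where no gene of the list was higher at an unadjusted p under 0.05 or by DESeq2. With UVB female replicate 2 left out, 1 adherens junction gene was called higher in females. *Cdh3*, for P-cadherin of the basal layer, was at 0.88 in males and 0.13 in females, and *Vcl*, for the actin-linking protein vinculin, was lower in both (-0.25 and -0.26), a call lost in 6 of the 8 female fits that left out 1 mouse. Of 7 tight junction genes tested, 5 were higher and 1 lower in males (median 0.36) and none was called in females (median 0.17), where edgeR gave an unadjusted p under 0.05 for *Tjp1* alone and DESeq2 called 0. In males *Cldn4*, for a claudin, rose by 0.61, and *Cgn*, for cingulin, was lower (-0.28). Of 9 regulators and sheddases of desmosomal cadherins, 4 were higher and 1 lower in males, with 2 higher under upper quartile scaling, and 0 were higher and 1 lower in females, again with no higher gene at an unadjusted p under 0.05 or by DESeq2. Leaving out UVB female replicate 2 gave 1 higher gene of this list in females. The transcription factor genes *Grhl3* and *Grhl1*, of the grainyhead family, rose by 0.64 and 0.60 in males. *Prkca*, for the protein kinase that weakens desmosomal adhesion, was lower in both sexes (-1.02 and -0.71, edgeR adjusted p = 3.45e-06 and 0.00205). The interaction was called for 1 gene of these 4 lists, where 2.75% of all genes were called with a larger response in males. This was the sheddase gene *Adam10* (0.25, edgeR adjusted p = 0.0657), which was named after its value was seen. That call was lost in 5 of the 16 fits that left out 1 mouse and with no filter beyond 1 count. Beyond it, DESeq2's Wald test called 2 more among the other desmosome genes, 2 among the adherens and 1 among the tight junction genes. The share of all genes called by that test was not counted, so that these calls have no background.

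**Figure D4:**
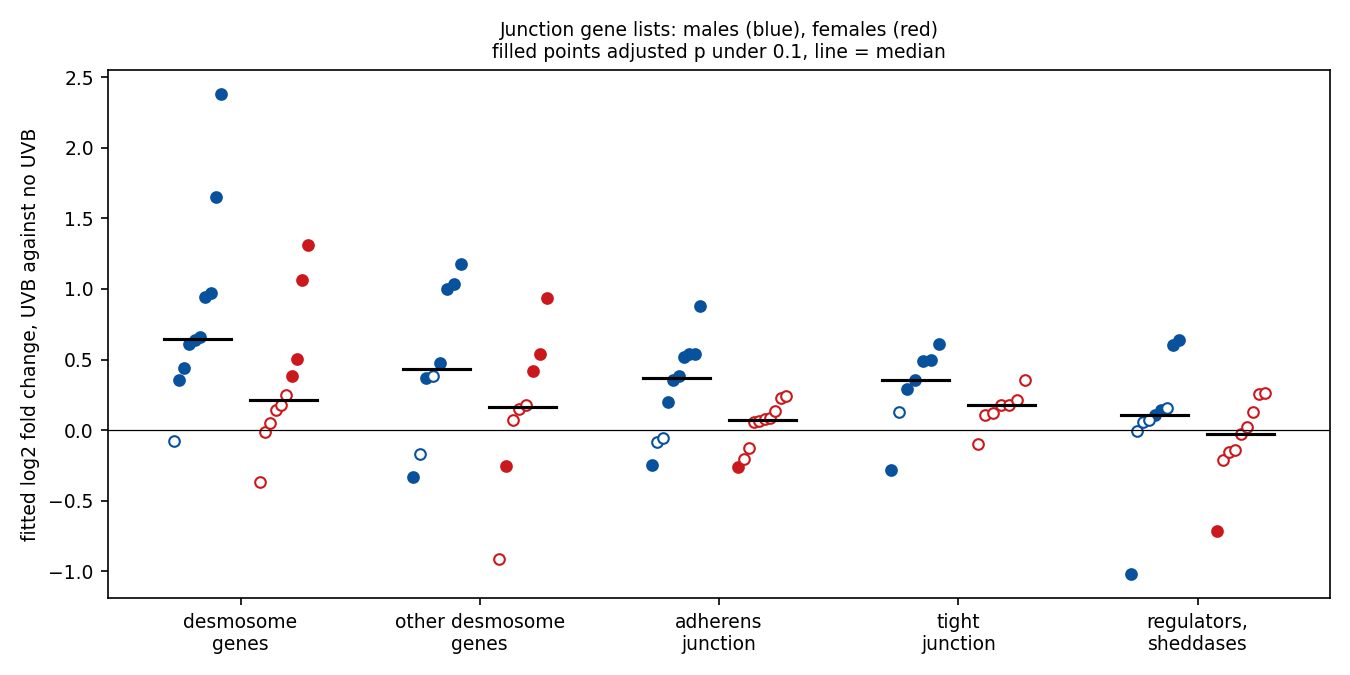
Fitted log2 fold change after UVB of each gene of 5 junction lists in males (blue) and females (red), with filled points for an adjusted p under 0.1 and a line at the list's median. The medians for the desmosome genes are 0.65 and 0.21, those of the adherens junction genes 0.37 and 0.07, and *Dsg1b* at 2.38 in males is the highest point.

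Markers of the epidermal layers and of other cells moved with these results. All 4 suprabasal and all 4 granular keratinocyte genes were higher after UVB in both sexes, with medians of 1.21 and 2.77 in males and 0.86 and 1.96 in females on the log2 scale. The summed suprabasal level was 5443 to 8101 CPM in no-UVB males, 16750 to 22644 in irradiated males, 4807 to 7388 in no-UVB females and 9229 to 12267 in irradiated females. Basal genes were mixed, with 3 of 6 higher and 1 lower in males and 1 higher and 1 lower in females. In males, where 30.5% of all genes were lower and 29.0% higher, 5 of 6 fibroblast, 5 of 5 skeletal muscle, 2 of 4 adipocyte and 3 of 5 leukocyte genes were lower, and 3 of 4 melanocyte genes were higher. In females, where 10.6% of all genes were lower and 12.8% higher, 1 fibroblast gene was higher and 1 lower, 2 leukocyte genes were lower, and no adipocyte, muscle or melanocyte gene was called. No endothelial gene of 4 was called in either sex. Between irradiated males and irradiated females, where 12.8% of all genes were higher and 12.5% lower in males, 4 of 6 basal, 2 of 4 suprabasal, 3 of 4 granular and 3 of 6 fibroblast genes were higher in males, and 3 of 4 adipocyte, 3 of 5 leukocyte, 1 of 5 muscle and 1 of 4 endothelial genes were lower. Without UVB, where 7.21% of all genes were higher and 4.58% lower in males, 4 of 6 fibroblast, 3 of 5 muscle and 1 of 4 melanocyte genes were higher, and 2 of 5 leukocyte, 2 of 4 melanocyte and 1 of 4 endothelial genes were lower. For the interaction, with 2.75% of all genes higher and 4.25% lower, 2 of 4 granular and 1 of 6 basal genes were higher, and 3 of 6 fibroblast (median -0.69) and 4 of 5 muscle genes (median -0.79) were lower. The part of these cell types in the desmosome results was not tested.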

How the data were processed

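Polyadenylated RNA of whole dorsal skin was sequenced from 16 mice, 4 in each group of sex and UVB treatment. Per the labels and the study's methods, the authors made strand-specific libraries and aligned the reads with STAR to GRCm39, with the STAR version and annotation release not given in the sources used here. They deposited whole-number gene counts per mouse without normalization. The sense-strand counts were used, as the other strand held 3.63 to 4.23% of the reads. Reads mapped to several places were listed as 0 in every library. Of all reads, 70.08 to 79.22% lay on genes, 8.30 to 13.69% outside genes, 1.17 to 1.34% were ambiguous and 10.12 to 16.36% unmapped, and only reads on genes entered the tests. Symbols, positions and exon lengths came from GENCODE M39, which held 54749 of the 55359 identifiers. The identifier versions of *Dsg1b*, *Dsg2*, *Dsc2*, *Jup* and *Dsp* differed from it, so that their RPKM values and shares rest on lengths that may differ from those counted.

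Counts were filtered with filterByExpr, scaled by TMM and tested with the quasi-likelihood test of edgeR 4.0.16 in R 4.3.3, with robust estimation and Benjamini-Hochberg adjustment over all genes tested. A gene was called at an adjusted p under 0.1, and was also counted past a log2 fold change of 1. The study used both thresholds with DESeq2 and fold changes shrunken by apeglm, whereas those counted here are edgeR's without shrinkage. UVB responses were fitted in the 8 mice of each sex. A fit of all 16 mice gave the interaction (the difference of the responses) and the contrasts of males with females. Levels are TMM-scaled CPM, and RPKM divides these by the length of all annotated exons. Alternatives were DESeq2's size factors, unstranded counts, upper quartile scaling, TMM without the 100 most abundant genes, no filter beyond 1 count, a minimum of 10 counts in each mouse, a replicate block, all 16 mice in a single fit, DESeq2 1.42.0 with and without apeglm 1.24.0, the longest transcript as gene length, and leaving out each mouse. Library totals without TMM factors were added after the data were seen, because collagen RNA took a larger part of the libraries of no-UVB males. The tests were tested on simulated data. Libraries of a group differed by far more than sampling noise. Sequences were aligned with Biopython 1.88. Members and gene lists were chosen with earlier results of these data known. All 10 members are named. Of the list of further desmosome genes any gene tested could be named, and of each other list the 2 called genes that rose most and the 2 that fell most. The values of 1 such gene and the window before the start of 1 member are not reported here. The precision rests on 4 mice per group and on counts of at least 257 reads.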

Additional observations from a re-analysis of the deposited data

Results flagged for a closer look

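Between the sexes, 2 of the 10 members had responses to UVB that differed by the test of the interaction itself, where 2.75% of all genes were called with a larger response in males. For *Dsg1b* the log2 fold change was 1.06 larger in males, with a standard error of 0.246 (edgeR adjusted p = 0.0366), and all 4 irradiated males were above all 4 irradiated females. *Dsc3* responded more in males by 0.57 (standard error 0.180, edgeR adjusted p = 0.0923), with 4 of 4 irradiated males above all 4 irradiated females and with no-UVB males and females overlapping. The call of *Dsc3* held in 4 of the 16 fits that left out 1 mouse, and with no filter beyond 1 count neither call held (edgeR adjusted p = 0.1001 for *Dsg1b* and 0.121 for *Dsc3*). In a search for a mouse far from the others of its group, 0 of the 40 sets of 4 mice (10 genes in 4 groups) had one by Dixon's test.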

How the results depend on the processing

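In males the 9 higher calls and the direction of every member stood under all alternatives and without any mouse. Between no-UVB males and females the count of called members stayed 0, and the other counts moved. In females the 4 higher members became 2 with the replicate block and 2 from library totals without TMM factors, and 2 to 4 when leaving out 1 mouse, with 2 without UVB replicates 1, 3 or 4 or no-UVB replicates 1 or 4. Lower members in females numbered 1 with all 16 mice in a single fit and 1 from library totals (*Dsg2* in each), and 0 to 1 when leaving out 1 mouse, with 1 without UVB replicate 3 or no-UVB replicate 4. For the interaction the 2 members became 0 with no filter beyond 1 count and 4 with DESeq2's Wald test, and 1 to 4 when leaving out 1 mouse. That count was 4 without UVB female replicate 3 or no-UVB female replicate 4, and 1 without any of UVB female replicates 1 and 2, no-UVB female replicates 1 to 3, the 4 UVB males, and no-UVB male replicates 1, 2 and 4. *Dsc1* was also called for the interaction with DESeq2's size factors, TMM without the 100 most abundant genes, the replicate block, library totals and DESeq2's Wald test. After UVB, 5 to 8 members were higher in males when leaving out 1 mouse.

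Small values changed sign. Library totals moved the median of all genes to -0.09 for the female response and to -0.17 between no-UVB males and females. They gave -0.041 for the female response of *Dsc3*. For males against females without UVB they gave -0.12 for *Dsg1a*, -0.094 for *Dsg1b*, -0.042 for *Dsc1* and -0.14 for *Dsp*. Leaving out 1 mouse, the female response ranged from -0.059 to 0.15 for *Dsc3*, from -0.0074 to 0.34 for *Dsg3* and from -0.11 to 0.079 for *Dsp*. The same fits gave differences between the sexes without UVB from -0.023 to 0.13 for *Dsg1a*, from -0.062 to 0.17 for *Dsg1b*, from -0.17 to 0.088 for *Dsg3* and from -0.083 to 0.098 for *Dsp*. The cause was not tested.

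Levels and shares depended on gene length. With the longest transcript, *Jup* was at 141, *Dsc1* at 53.5 and *Dsg2* at 5.57 RPKM without UVB. *Dsc1* then made up 31.2% of the desmocollins in no-UVB females, 35.0% in no-UVB males and 52.2% in irradiated males, and *Dsc3* made up 66.6%, 63.0% and 46.0%. Among the desmogleins *Dsg1a* made up 75.1% in no-UVB males and *Dsg3* 15.8% in irradiated males, and *Dsg2* made up 3.91% and 2.53% in females and 3.52% and 1.95% in males without and after UVB. Counts without regard to strand gave *Dsg2* a share of 1.46% in irradiated females and 2.05% in no-UVB males.

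Whether the replicate numbers pair the mice is not known. Deviations of same-numbered mice correlated between -0.11 and 0.22 in females and between -0.073 and 0.022 in males. Those of differently numbered mice correlated between -0.19 and 0.26 in females and between -0.16 and 0.19 in males. Of the irradiated mice, 2 of 4 females and 0 of 4 males correlated best with their own number, and so few mice cannot decide the question. Beyond the counts above, the replicate block took the calls of *Dsc2* and *Jup* in females (edgeR adjusted p = 0.127 and 0.167) and added that of *Dsc1* for the interaction (0.0860). The split of reads between *Dsg1a* and *Dsg1b* is limited by the sequence they share.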

Other observations

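Within each group the members tended to be high or low in the same mice. UVB female replicate 3 had the highest level of its group for 10 of 10 members, and UVB female replicate 2 had the lowest for 8, the exceptions being *Dsc1* and *Dsg1b*. No-UVB female replicate 4 was lowest for 10 of 10. Among the no-UVB males, replicate 2 was lowest and replicate 3 highest for 8 members each, and among the irradiated males replicate 4 was lowest for 7. Marker sums went with some of these ranks and not with others. UVB female replicate 2 had the highest fibroblast sum (21853 CPM) and adipocyte sum (2802 CPM) and the lowest basal keratinocyte sum (4647 CPM) of its group, but also the highest granular sum (1770 CPM). UVB female replicate 3 had the highest basal sum (7198 CPM) and the lowest adipocyte sum (1200 CPM). No-UVB female replicate 4 had the lowest basal sum (5187 CPM) and the highest adipocyte (2168 CPM) and leukocyte (1243 CPM) sums. No-UVB male replicate 2 had the lowest basal sum (6157 CPM) and replicate 3 the highest (8953 CPM). UVB male replicate 1, highest of its group for 6 members, had a basal sum of 9092 CPM, below replicate 2 at 11859 CPM and replicate 3 at 9981 CPM. UVB male replicate 4 had the lowest basal (8467 CPM), suprabasal (16750.0 CPM) and granular (1680 CPM) sums and the highest adipocyte sum (1453 CPM) of its group. The part of these cells in the ranks was not tested.

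Outside the epidermal responses, *Pkp2*, a plakophilin known from heart and simple epithelia, was lower in irradiated males than in irradiated females (log2 difference -0.66, standard error 0.2, edgeR adjusted p = 0.0326), at 5.63 ± 0.348 against 8.86 ± 1.74 CPM (SD, n = 4). Without UVB it was at 6.41 ± 1.76 in males and 8.52 ± 1.97 CPM in females (log2 difference -0.40, edgeR adjusted p = 0.246), and the interaction was not past the threshold (edgeR adjusted p = 0.641). It was the only gene of the junction lists called lower in males after UVB, where 12.5% of all genes were, and it was not called when UVB female replicate 1 was left out.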
